A study of Mus musculus with 20 samples.

Results

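The cell-surface heparan sulfate proteoglycans examined here were 4 syndecans (Sdc1, Sdc2, Sdc3 and Sdc4) and 3 glypicans (Gpc1, Gpc4 and Gpc6). Their 7 rows were taken by gene symbol from a table of 53311 genes, and 6 of the 7 were among the 13560 genes with enough counts to be tested. The members were chosen by measured values of these samples, the genotype difference of Gpc4 and the exercise response of Sdc4. Genotype differences and exercise responses of these genes are therefore given as descriptions. Calls and adjusted p-values printed for them come from the fit over all genes and are not taken as evidence of a difference. RNA came from the gastrocnemius, a calf muscle, of mice that all carried Cre and floxed Bmal1 alleles (Cre+:iMSBmal1 fl/fl). Arntl encodes BMAL1, which drives clock gene transcription. Mice received either vehicle or the treatment named iMSBmal1KO. Muscles were taken at zeitgeber time 13, from resting mice or 1 h after a 30 min treadmill run. This gave 4 groups of 5 samples. The labels name neither the promoter that drives Cre nor the age of the mice, and vehicle animals carry the same Cre and floxed alleles.

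Syndecans are transmembrane proteins and glypicans are held on the outer membrane leaflet by a glycosylphosphatidylinositol anchor. Both carry heparan sulfate, a sulfated sugar chain that binds growth factors, enzymes and matrix proteins and presents them to their receptors. In muscle, syndecan-3 and syndecan-4 are known from satellite cells, the stem cells of the tissue, and syndecan-4 is also a component of focal adhesions. Glypicans modulate Wnt, fibroblast growth factor and bone morphogenetic protein signalling.

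Total counts ran from 8045154 to 11269812 per sample, and 6 fibre markers (Ckm, Acta1, Ttn, Des, Mb and Neb) summed to between 57570 and 83090 CPM (counts scaled to a library of 1000000). The targeted gene was not lower in the samples labelled knockout. At rest, Arntl had 12.3 ± 2.39 CPM in the vehicle group and 14.5 ± 1.94 CPM in the group labelled knockout, and after exercise 14.3 ± 5.71 and 16.4 ± 4.15 CPM (SD, n = 5 each). Counts were per gene and exons were not examined singly, so that these totals do not tell whether the floxed part was removed. Every genotype direction below therefore rests on the labels, and these samples are called knockout-labelled. Slow-fibre markers varied widely within each group, from 77.3 to 2436 CPM in vehicle at rest, 37.8 to 2353 in vehicle after exercise, 214 to 3549 in knockout-labelled muscle at rest and 48.6 to 2384 after exercise. None of these 8 markers was called in any comparison by edgeR. Their median log2 fold change, knockout-labelled over vehicle, was 0.64 at rest (8 of 8 above 0) and -0.39 after exercise (1 of 8). With exercise it was -0.37 in vehicle and -1.34 in knockout-labelled muscle (0 of 8 above 0 each). The difference between both responses had a median of -0.99 (0 of 8). Equal slow-fibre content of the groups was therefore not established. The labels do not say that samples came from separate animals, so that p-values measure the spread between these samples.

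Gpc1 was by far the most abundant of the 7 genes. Levels of different genes were compared as CPM per kb of merged exon length. In vehicle muscle at rest, Gpc1 stood at 59.9 ± 12.5 CPM per kb, Sdc4 at 9.58 ± 2.13, Gpc4 at 6.10 ± 0.786, Sdc3 at 2.58 ± 0.263, Sdc2 at 2.54 ± 0.552, Sdc1 at 0.493 ± 0.109 and Gpc6 at 0.0431 ± 0.037 (SD, n = 5). Sdc2 and Sdc3 did not differ beyond their spread, and Sdc4 and Gpc4 overlapped by a little, with ranges of 6.98 to 12.4 and 5.10 to 7.13. In knockout-labelled muscle at rest the order of Sdc4 and Gpc4 was no longer separable, with 16.9 ± 3.39 and 15.2 ± 0.891 CPM per kb. Gpc4 exceeded Sdc4 per kb in 0 of 5 vehicle samples in either state and in 2 of 5 knockout-labelled samples in either state. Among the glypicans left out of the set, Gpc3 stood at 0.950 ± 0.214 CPM per kb in vehicle at rest, Gpc2 had at most 2 counts in any sample and Gpc5 had 0 counts in all of them.

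**Figure D1:**
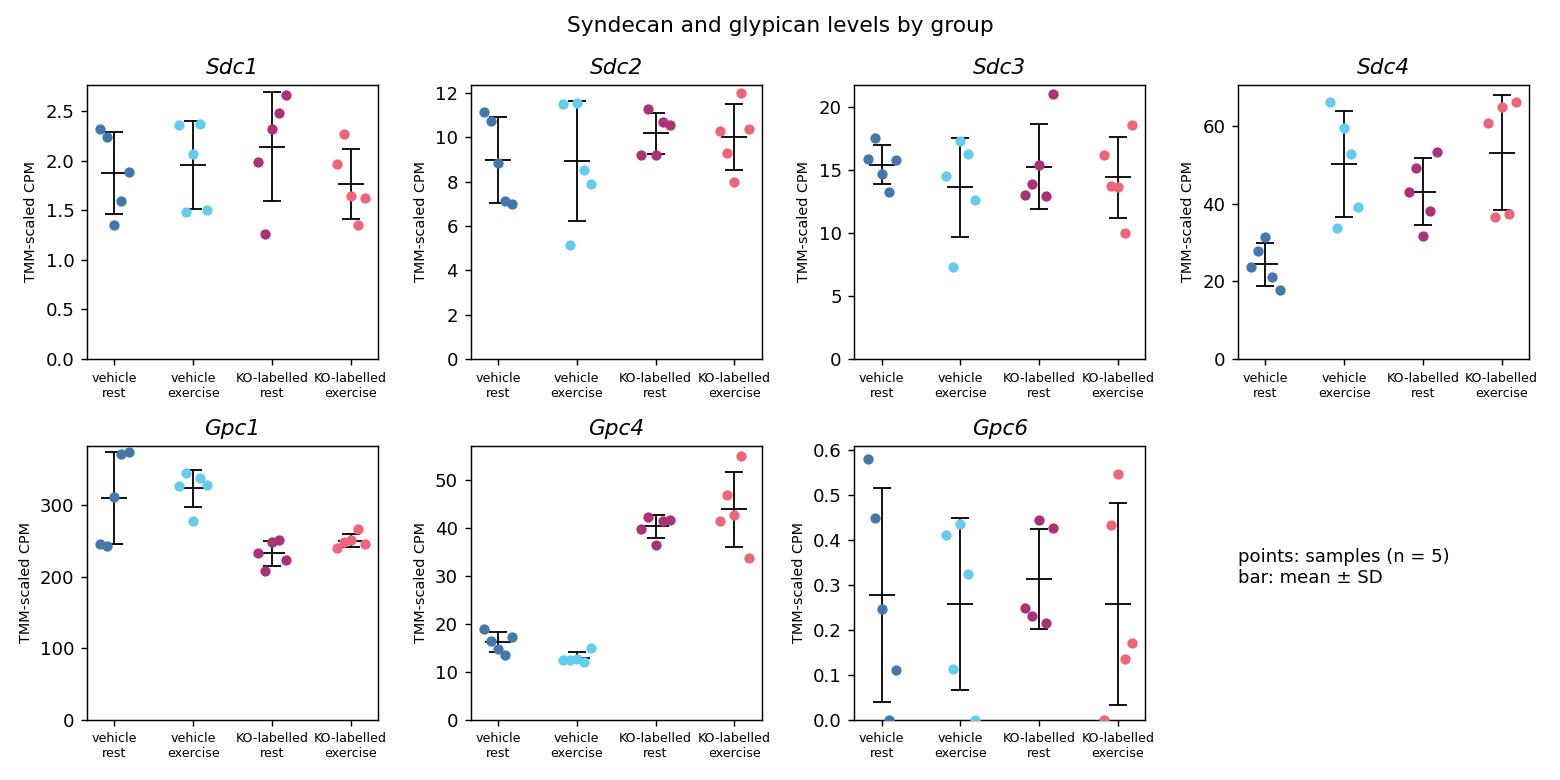
TMM-scaled CPM of the 7 genes (vertical axis, starting at 0) in the 4 groups, with 1 point per sample and a bar for the mean ± SD of 5 samples. Gpc4 lies between 12.1 and 18.9 CPM in the 10 vehicle samples and between 33.7 and 54.9 CPM in the 10 knockout-labelled samples, while Sdc4 is lowest in vehicle muscle at rest.

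The make-up of the set is given as a description. Its choice by Gpc4 and Sdc4 bears on their shares, and so on the other shares. The 7 genes together summed to 81.2 CPM per kb in vehicle at rest (70.6 to 91.2), 92.6 ± 5.53 in vehicle after exercise, 83.2 ± 2.96 in knockout-labelled muscle at rest and 91.7 ± 3.51 after exercise (SD, n = 5). Gpc1 made up 73.1% ± 6.45 of this sum in vehicle at rest and 54.2% ± 4.63 in knockout-labelled muscle at rest. Gpc4 made up 7.66% ± 1.75 and 18.3% ± 0.882, and Sdc4 12.1% ± 3.46 and 20.3% ± 3.73 in the same groups. After exercise Gpc1 made up 67.8% ± 6.20 in vehicle and 53.0% ± 2.75 in knockout-labelled muscle, and Gpc4 5.28% ± 0.657 and 18.1% ± 3.44. The Sdc4 share after exercise was 21.2% ± 5.07 and 22.7% ± 5.84, within the spread of either group.

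**Figure D2:**
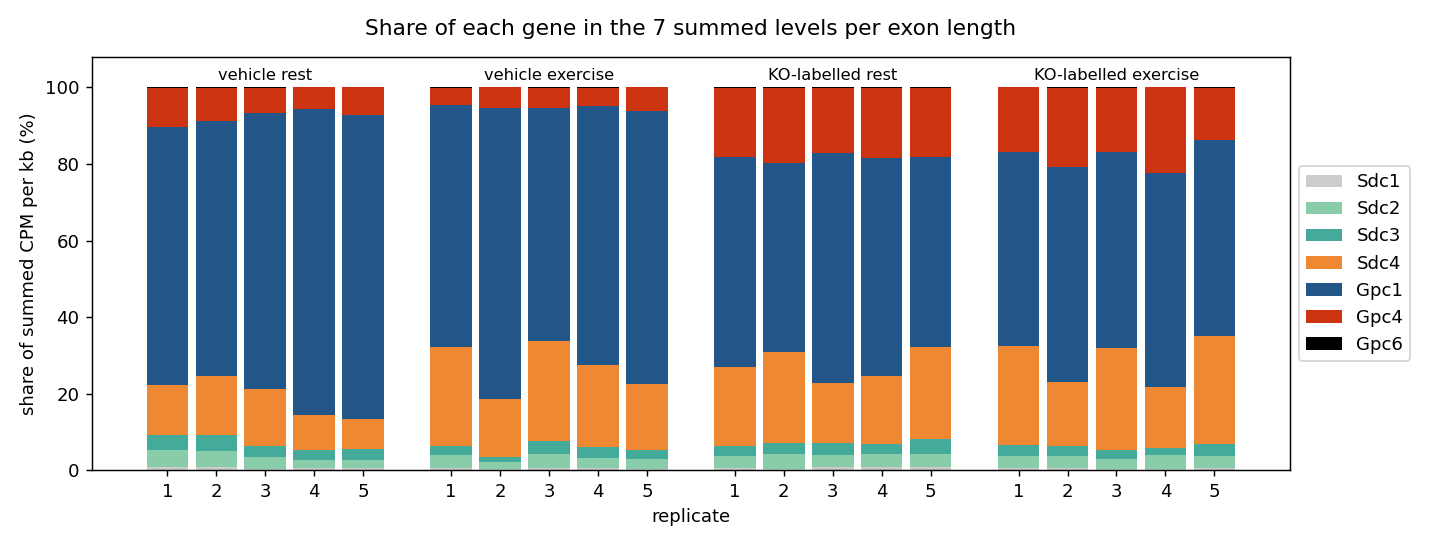
Share of each of the 7 genes in their summed CPM per kb (percent, stacked to 100) for each of the 20 samples, ordered by group and replicate. The Gpc4 share runs from 4.66% to 10.1% in vehicle samples and from 13.7% to 22.4% in knockout-labelled samples.

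Among the glypicans, Gpc4, a co-receptor for growth factor and Wnt signals, was the gene with the widest genotype separation. At rest its levels were 18.9, 16.4, 14.8, 13.5 and 17.2 CPM in vehicle muscle and 39.8, 42.3, 36.4, 41.4 and 41.6 CPM in knockout-labelled muscle. After exercise they were 12.4, 12.5, 12.6, 12.1 and 14.9 CPM in vehicle and 41.3, 46.9, 42.6, 54.9 and 33.7 CPM in knockout-labelled muscle. Every knockout-labelled sample was above every vehicle sample in both states. The fitted log2 fold change, knockout-labelled over vehicle, was 1.32 (SE 0.11) at rest and 1.76 (SE 0.11) after exercise, which is 2.49-fold and 3.39-fold. With exercise, Gpc4 had a log2 fold change of -0.33 (SE 0.12) in vehicle, where 4 of 5 exercised samples lay below all resting ones, and 0.12 (SE 0.11) in knockout-labelled muscle, where the groups overlapped.

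Gpc1, a glypican of muscle and nerve cells, was lower in knockout-labelled samples. At rest its levels were 246, 243, 311, 371 and 374 CPM in vehicle and 233, 207, 248, 251 and 224 CPM in knockout-labelled muscle. Vehicle replicates 1 and 2 lay within the knockout-labelled range, so that the groups overlapped. After exercise the levels were 326, 345, 278, 337 and 328 CPM in vehicle and 240, 249, 251, 266 and 246 CPM in knockout-labelled muscle, without overlap. The log2 fold change was -0.41 (SE 0.11) at rest and -0.37 (SE 0.11) after exercise, which is 0.752-fold and 0.775-fold. Exercise values were close to 0 in both genotypes, with log2 fold changes of 0.06 (SE 0.11) in vehicle and 0.11 (SE 0.11) in knockout-labelled muscle. In GENCODE M21, 18.9% of the merged exon length of Gpc1 overlaps the opposite-strand gene Ankmy1, and whether reads were counted by strand is not given. Ankmy1 had 119 to 419 counts per sample, against 1804 to 3504 for Gpc1, and was itself lower in knockout-labelled muscle after exercise (log2 fold change -1.17, SE 0.19, edgeR adjusted p 6e-04). At rest Ankmy1 was not called for genotype (edgeR adjusted p 0.183). How much of the Gpc1 difference comes from shared reads was not tested.

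Gpc6 was at the limit of detection. It had 0 to 5 counts per sample, which is at most 0.580 CPM, and 0 counts in 3 of 20 samples. At this depth a count of 0 allows up to 3 counts, or 0.405 CPM in the library with the smallest scaled size. Gpc6 did not pass the filter on low counts, no fold change was computed, and a difference between groups was not detectable.

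Among the syndecans, Sdc4 was the most abundant and the one whose level differed with exercise. In vehicle muscle its levels were 23.8, 27.9, 31.5, 21.04 and 17.8 CPM at rest and 66.4, 33.7, 59.5, 52.9 and 39.1 CPM after exercise. Every exercised vehicle sample lay above every resting one, and the log2 fold change was 1.04 (SE 0.22), or 2.06-fold. In knockout-labelled muscle the levels were 43.2, 49.2, 31.7, 38.3 and 53.5 CPM at rest and 60.9, 36.6, 64.9, 37.5 and 66.3 CPM after exercise. Those groups overlapped, and the log2 fold change was 0.31 (SE 0.22). Knockout-labelled muscle at rest lay above vehicle at rest in 5 of 5 samples, with a log2 fold change of 0.82 (SE 0.22), while after exercise the genotypes overlapped, with a log2 fold change of 0.08 (SE 0.22). Vehicle at rest was thus the group with the lowest Sdc4, and the other 3 group means lay between 43.2 and 53.2 CPM.

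RefSeq promoter windows (GRCm38.p6, 250 bases before to 50 bases after the start) matched 4 of the 7 genes, Sdc1, Sdc3, Sdc4 and Gpc4. They were searched on both strands for the E-box CACGTG, which BMAL1 binds with its partners, its variant CACGTT, the cyclic AMP response element TGACGTCA and its core TGACG, the AP-1 site TGANTCA, the D-box TTATGNAA, TATAAA and the GC box GGGCGG. No E-box, variant E-box, complete cyclic AMP element, AP-1 site, D-box or TATAAA was in any of the 4 windows, against 7.15%, 4.68%, 1.79%, 7.81%, 3.38% and 13.6% of 32851 promoters of the same length. The core, which the complete element also contains, was in Sdc3 alone, once, and in 20.8% of all promoters. GC boxes were found 4 times in Sdc4, 3 times in Sdc1, 3 times in Sdc3 and once in Gpc4, and in 35.7% of all promoters. The 250 bases upstream of the Sdc4 start are printed because Sdc4 is the member whose level differed with exercise. They lie at chr2:164443189-164443438 on the minus strand, and capitals mark the GC boxes. A match or its absence describes these letters only. In GENCODE M21, which starts some transcripts farther upstream, all 250 bases before the RefSeq start of Gpc4 and 73 of those of Sdc1 lie inside exons of the gene itself, against 0 for Sdc3 and Sdc4, so that the Gpc4 window is transcribed sequence by that annotation.
Sdc4: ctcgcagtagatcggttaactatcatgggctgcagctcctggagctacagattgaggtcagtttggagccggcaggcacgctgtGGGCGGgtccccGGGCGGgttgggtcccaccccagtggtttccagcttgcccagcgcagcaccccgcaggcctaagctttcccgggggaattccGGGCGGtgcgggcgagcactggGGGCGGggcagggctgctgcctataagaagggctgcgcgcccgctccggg

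The other syndecans had similar levels in the 4 groups. Sdc3 had group means of 15.4 ± 1.58 CPM in vehicle at rest, 13.6 ± 3.96 in vehicle after exercise, 15.3 ± 3.39 in knockout-labelled muscle at rest and 14.4 ± 3.21 after exercise (SD, n = 5). Sdc2, a syndecan of mesenchymal cells, had group means of 8.97 ± 1.95, 8.91 ± 2.702, 10.2 ± 0.934 and 9.99 ± 1.49 CPM in the same order. Sdc1, mainly an epithelial and plasma cell syndecan, had 10 to 25 counts per sample and group means of 1.88 ± 0.414, 1.96 ± 0.443, 2.14 ± 0.551 and 1.77 ± 0.353 CPM. For these 3 genes all ranges overlapped in the 4 comparisons, and log2 fold changes ran from -0.28 (Sdc1, exercise in knockout-labelled muscle, SE 0.25) to 0.19 (Sdc1, genotype at rest, SE 0.25). Vehicle replicate 2 after exercise was low in both Sdc2 (5.12 CPM) and Sdc3 (7.28 CPM), and its summed slow-fibre markers were the lowest of all samples. Its sums were also the lowest for fibroblasts (234.5 CPM), smooth muscle and pericytes (131.7 CPM), endothelium, Schwann cells and leukocytes. They were not the lowest for satellite cells, tendon, fat or red blood cells. Which of these the low Sdc2 and Sdc3 of this sample follow was not tested. In GENCODE M21, 6.93% of the Sdc3 exon length overlaps the antisense gene Gm26716, which had 3 to 34 counts per sample.

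**Figure D3:**
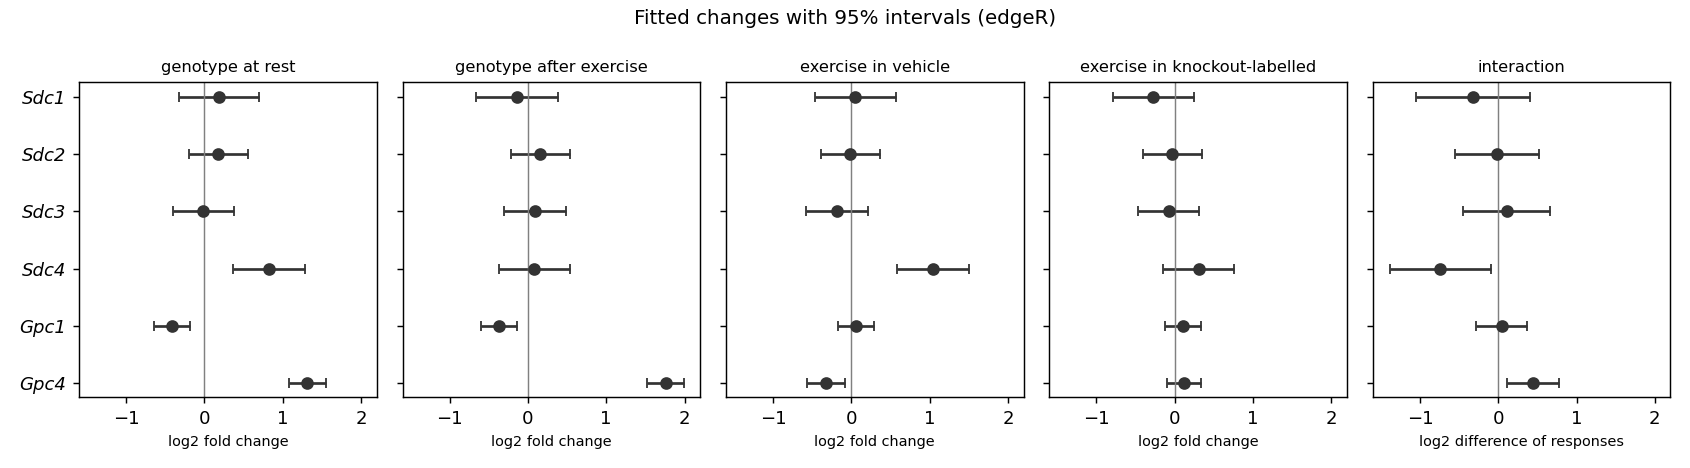
Fitted log2 fold changes (horizontal axis) of the 6 tested genes with unadjusted 95% intervals, for genotype at rest and after exercise, for exercise in vehicle and in knockout-labelled muscle, and for the interaction. Gpc4 has the largest genotype values, 1.32 and 1.76, and Sdc4 the largest exercise value, 1.04 in vehicle.

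In the fit over all genes, an edgeR adjusted p under 0.05 was reached by 3 of 6 members for genotype at rest (Sdc4 and Gpc4 higher, Gpc1 lower), where 3.86% of all genes tested were called, 1.8% higher and 2.06% lower. For genotype after exercise it was reached by 2 of 6 (Gpc4 higher, Gpc1 lower), where 6.42% of all genes were called, 2.67% higher and 3.75% lower. Of those 870 calls 41.6% were higher, and of 845 calls with library size as the only scaling 53.1%. For exercise in vehicle it was reached by 1 of 6 (Sdc4, higher), where 0.804% of all genes were called, 0.605% higher. In knockout-labelled muscle 0 of 6 members and 0% of all genes were called with exercise, and 0 members and 639 genes had an unadjusted p under 0.05. DESeq2 also called 0 genes there. These counts describe the choice of the set and support nothing further. Of 10 fits that each left out 1 library, the Sdc4 call at rest held in 2, those without replicate 3 of either group, and its log2 fold change ran from 0.73 to 0.93. The Sdc4 exercise call held in 3 of 10, those without vehicle at rest replicate 3 or vehicle after exercise replicate 2 or 5 (0.92 to 1.16). The Gpc1 call held in 4 of 10 at rest, without vehicle replicates 1 or 2 or knockout-labelled replicates 3 or 4 (-0.50 to -0.33), and after exercise only without vehicle replicate 3 (-0.43 to -0.34). Ranges of the groups did not overlap for 2 members at rest (Sdc4 and Gpc4, both higher; 5.8% of all genes, 2.8% higher and 2.99% lower) and for 2 after exercise (Gpc4 higher, Gpc1 lower; 6.29% of all genes, 2.7% higher and 3.59% lower). They did not overlap for Sdc4 with exercise in vehicle (2.04% of all genes, 1.18% higher) and for 0 members with exercise in knockout-labelled muscle (0.848% of all genes, 0.487% higher and 0.361% lower). Over all 10 against 10 samples the genotypes did not overlap for Gpc4, as for 1.77% of all genes, 0.914% higher.

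The interaction, the difference between the exercise responses of both genotypes, is made from the same group values that chose Sdc4 and Gpc4, so that their values are descriptions too. Sdc4 had a log2 difference of -0.74, knockout-labelled minus vehicle response (SE 0.31), and Gpc4 one of 0.44 (SE 0.16). In the fit over all genes edgeR called 0 of 6 members and 0 of 13560 genes (0%), with 2 members, Sdc4 and Gpc4, and 791 genes at an unadjusted p under 0.05. DESeq2 called 2 genes, none of them a member. The other tested members had log2 differences of 0.04 for Gpc1 (95% interval -0.28 to 0.37), -0.02 for Sdc2 (-0.55 to 0.52), 0.11 for Sdc3 (-0.45 to 0.66) and -0.32 for Sdc1 (-1.05 to 0.41). A different exercise response of Sdc4 in the 2 genotypes was therefore not established.

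Sdc4 was higher in samples with more slow-fibre RNA, a relation that the choice of the set did not use and that was examined after the data had been seen. The slow-fibre score was the mean log2 CPM of Myh7, Tnnt1, Tnni1, Tnnc1, Myl2, Myl3, Atp2a2 and Myh7b, and it was added to the model of all genes as a term beside the group. Such relations were common, with 23.3% of 13560 genes called, 12.6% higher and 10.8% lower at a higher score. Of the 6 members 3 were called. Sdc4 was higher by 0.11 in log2 per unit of the score (SE 0.02, edgeR adjusted p 0.000192), and by 0.11 (SE 0.03, adjusted p 0.00896) without the 2 samples farthest from the median score, where 15.8% of genes were called. Sdc3 was higher by 0.07 (SE 0.02, adjusted p 0.0317) and Gpc1 lower, at -0.04 (SE 0.01, adjusted p 0.0498). Neither call held without those 2 samples, exercised vehicle replicate 2 and exercised knockout-labelled replicate 4 (adjusted p 0.51 for Sdc3 and 0.0862 for Gpc1). Sdc2 (adjusted p 0.111), Gpc4 (0.254) and Sdc1 (0.965) were not called.

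As correlations of deviations from the group means over the 20 samples, with values permuted 100000 times within groups, Sdc4 had r = 0.80 (permutation p = 0.001) and rho = 0.77 (p = 0.0021), with the same sign in 4 of 4 groups. Gpc1 had r = -0.56 (permutation p = 0.00089) and rho = -0.70 (p = 0.00015), also with 1 sign in all groups. An r at least this far from 0 was reached by 5.76% of all genes for the Sdc4 value and by 26.5% for the Gpc1 value, so that the Gpc1 relation is one that many genes show. Without the 2 farthest samples r was 0.72 for Sdc4 and -0.56 for Gpc1. Among the other members r was 0.60 for Sdc3 (permutation p = 0.018; rho = 0.49, p = 0.048), 0.50 for Sdc2 (permutation p = 0.065; rho = 0.51, p = 0.046), -0.33 for Gpc4 (permutation p = 0.24; rho = -0.21, p = 0.44) and 0.05 for Sdc1 (permutation p = 0.85; rho = 0.05, p = 0.86). Without the 2 samples these became 0.32, 0.48, -0.25 and -0.24. These are 6 relations, and the p-values of r and rho are not adjusted.

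**Figure D4:**
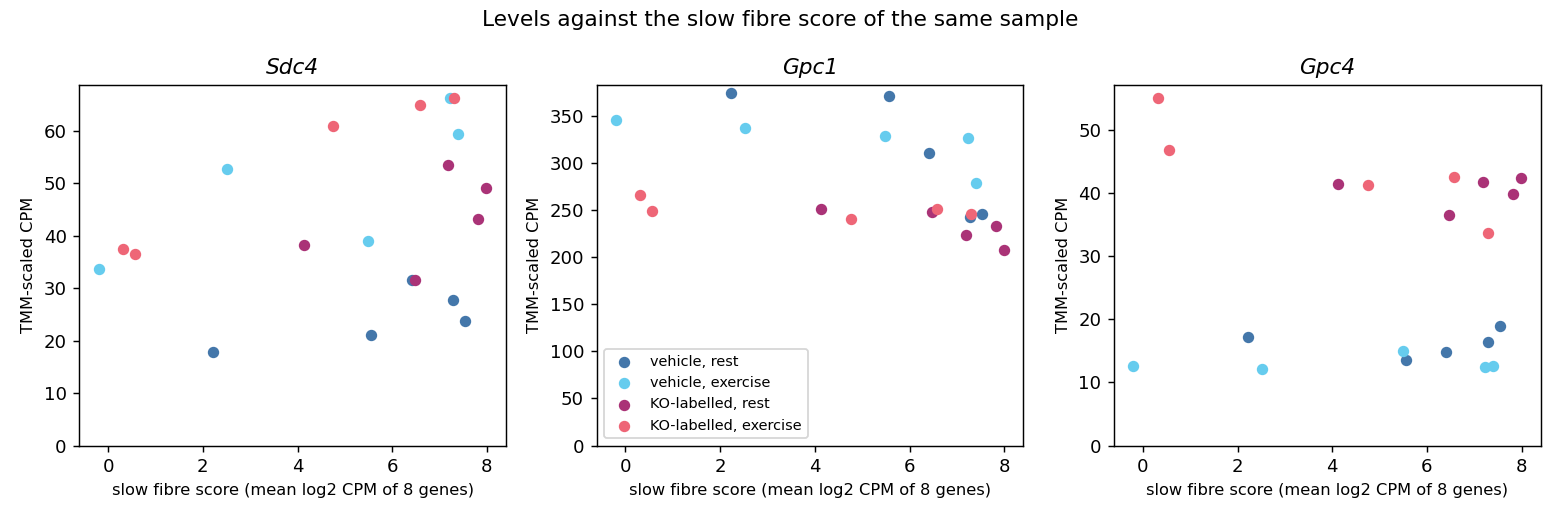
TMM-scaled CPM of Sdc4, Gpc1 and Gpc4 (vertical axes) against the slow-fibre score of the same sample (mean log2 CPM of 8 genes, horizontal axis), with 1 point per sample coloured by group. Within groups Sdc4 is higher and Gpc1 lower at higher scores, while Gpc4 separates the genotypes over the whole range of scores.

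With the score as a covariate, the log2 fold change of Sdc4 was 1.18 (SE 0.14) for exercise in vehicle, 0.58 (SE 0.14) for exercise in knockout-labelled muscle and 0.73 (SE 0.13) for genotype at rest. For exercise in knockout-labelled muscle Sdc4 was called in 0 of 18 alternative fits, this one included (edgeR or DESeq2 adjusted p of 0.135 or more). The markers of the score were themselves fitted lower in that comparison (median log2 fold change -1.34). Gpc1 had -0.37 (SE 0.09) at rest and -0.39 (SE 0.09) after exercise, and Gpc4 had 1.34 (SE 0.11) and 1.73 (SE 0.11). Other cell types were followed by marker lists, and in bulk RNA fewer cells of a type and less RNA per cell cannot be told apart. The 7 satellite cell markers summed to 98.8 to 125 CPM in vehicle at rest, 88.8 to 103 in vehicle after exercise, 93.7 to 121 in knockout-labelled muscle at rest and 99.8 to 120 after exercise. Of the 5 that were tested, 0 were called in any comparison. These sums mostly follow Itga7, with 84.2 ± 6.99 CPM in vehicle at rest and 70.7 ± 4.25 after exercise. Megf10 and Calcr were not tested. After exercise Megf10 had 1 to 4 counts in vehicle and 6 to 8 in knockout-labelled samples, while Calcr overlapped. The 8 fibroblast markers summed to 309 to 467, 235 to 444, 363 to 511 and 377 to 477 CPM in the same order, with 0 called in any comparison. Of these 8, 7 were fitted higher in knockout-labelled muscle at rest and 7 after exercise, with median log2 fold changes of 0.19 and 0.24. An unadjusted edgeR p under 0.05 was reached by 1 and 2 of them. With a fibroblast score as a covariate, the Gpc4 values were 1.29 (SE 0.12) at rest and 1.74 (SE 0.12) after exercise, and the Sdc4 value at rest was 0.68 (SE 0.21). With exercise in vehicle, tendon markers had a median log2 fold change of -0.59 (0 of 5 above 0) and endothelium -0.37 (1 of 6). Schwann cell markers had 0.69 (4 of 4) and red blood cell markers 0.43 (5 of 5). In knockout-labelled muscle these medians were -0.86 (0 of 5), -0.14 (1 of 6), 0.40 (4 of 4) and -0.33 (0 of 5). None of these markers was called with exercise, and their bearing on Sdc4 was not tested.

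The rest of the heparan sulfate pathway was followed through 91 genes in 8 lists, of which 71 were tested. Fewer than 1 in 10 were called in any comparison. At rest 4 of 71 were lower and 0 higher in knockout-labelled muscle (5.63%, against 3.86% of all genes), and the median log2 fold change was -0.01 against 0.01 over all genes. After exercise 3 were lower and 1 higher (5.63% against 6.42%), with medians of 0.01 and 0.02. With exercise in vehicle 1 was lower (1.41% against 0.804%), and in knockout-labelled muscle 0 were called, nor at an unadjusted p under 0.05, by edgeR, and 0 by DESeq2. For the interaction 0 were called by edgeR, with 4 at an unadjusted p under 0.05, and 0 by DESeq2.

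Chain synthesis genes build the linker and polymerise the sugar chain, and most of the 11 tested were not called. Extl1, an exostosin-like glycosyltransferase, fell from 70.7 ± 7.35 to 49.4 ± 2.44 CPM at rest (log2 value -0.52, SE 0.09, edgeR adjusted p 0.00121). After exercise it was lower by -0.31 (SE 0.09, adjusted p 0.0464), a call that held in 1 of 10 fits without 1 library. The highest adjusted p there was 0.125, when knockout-labelled replicate 2 was left out. Xylt1, a xylosyltransferase that starts the chain on the core protein, was lower after exercise, 5.67 ± 1.20 CPM in the vehicle group against 3.51 ± 0.669 CPM (log2 value -0.71, SE 0.20, adjusted p 0.0333). That call was lost in 4 of 10 fits without 1 library, the highest adjusted p being 0.0952, when vehicle replicate 5 was left out. In total 1 of 11 tested chain synthesis genes was called at rest and 2 of 11 after exercise, all lower, where 2.06% and 3.75% of all genes were called lower. The polymerase genes Ext1 and Ext2 were not called, and at rest had 5.96 ± 0.996 and 30.9 ± 6.32 CPM in the vehicle group against 7.17 ± 1.07 and 27.7 ± 3.63 CPM in the other genotype.

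No gene was called in 5 of the 8 lists in any comparison. These were the other proteoglycans (7 of 9 tested), the sulfation and epimerisation enzymes (7 of 16), sugar and sulfate supply (8 of 8), editing, shedding and release (6 of 10) and lysosomal breakdown (8 of 8). In these lists, unadjusted p-values under 0.05 were reached by 3 genes at rest, 4 genes after exercise and 6 genes with exercise in vehicle. Hspg2, the basement membrane proteoglycan perlecan, had 167 ± 23.3 CPM in resting vehicle samples and 195 ± 17.8 CPM in resting knockout-labelled samples, and Ndst1, the main N-deacetylase and N-sulfotransferase, at 78.5 ± 8.36 and 70.6 ± 5.36 CPM. Both genes, like Ext1, Ext2 and Sdcbp, were chosen as examples after their values were seen.

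Of the 20 heparan sulfate binding ligands and receptors, 16 were tested and the receptor Met gave the largest difference. Met, the receptor of hepatocyte growth factor, fell from 9.79 ± 1.24 to 4.68 ± 0.777 CPM at rest (log2 value -1.07, SE 0.18, edgeR adjusted p 0.000496) and from 11.7 ± 1.88 to 4.60 ± 1.28 CPM after exercise (-1.34, SE 0.17, adjusted p 2.13e-05). Both calls held in 10 of 10 fits without 1 library. Ptprs, a receptor phosphatase that binds heparan sulfate, was lower at rest (log2 value -0.33, SE 0.09, adjusted p 0.0423), a call lost in 8 of 10 such fits (adjusted p up to 0.125, without vehicle replicate 5). Hbegf, a heparin-binding growth factor, was higher after exercise in knockout-labelled muscle, with 11.2 ± 3.07 CPM against 6.51 ± 1.96 CPM in vehicle (0.78, SE 0.24, adjusted p 0.0472), a call lost in 6 of 10 (up to 0.132, without vehicle replicate 1). Fgf6, a muscle fibroblast growth factor, was lower with exercise in vehicle, at 6.17 ± 1.28 CPM in resting samples and 2.81 ± 0.673 CPM in exercised samples (-1.13, SE 0.26, adjusted p 0.039), a call lost in 7 of 10 (highest adjusted p 0.130, when exercised vehicle replicate 4 was left out). The interaction of Fgf6 had the smallest p of the pathway genes and did not pass (log2 difference 1.02, SE 0.37, adjusted p 0.766), followed by Ptprs (0.30, SE 0.13, adjusted p 0.812). With exercise in knockout-labelled muscle the smallest p belonged to B3galt6 (log2 fold change -0.54, SE 0.26) and Hs3st5 (-0.38, SE 0.19), each with an adjusted p of 1.

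Among the 8 partners of the syndecan tail, Tiam1 was called. Tiam1, a guanine nucleotide exchange factor for Rac, fell from 12.4 ± 2.43 to 6.09 ± 1.60 CPM at rest (log2 value -1.02, SE 0.24, edgeR adjusted p 0.0129), in 10 of 10 fits without 1 library. Exercised samples had 7.75 ± 2.83 CPM (vehicle) and 6.04 ± 1.88 CPM (knockout-labelled), and Tiam1 was not called there. The gene of syntenin, Sdcbp, which binds the tail of all syndecans, was not called and had group means from 29.3 to 35.0 CPM.

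**Figure D5:**
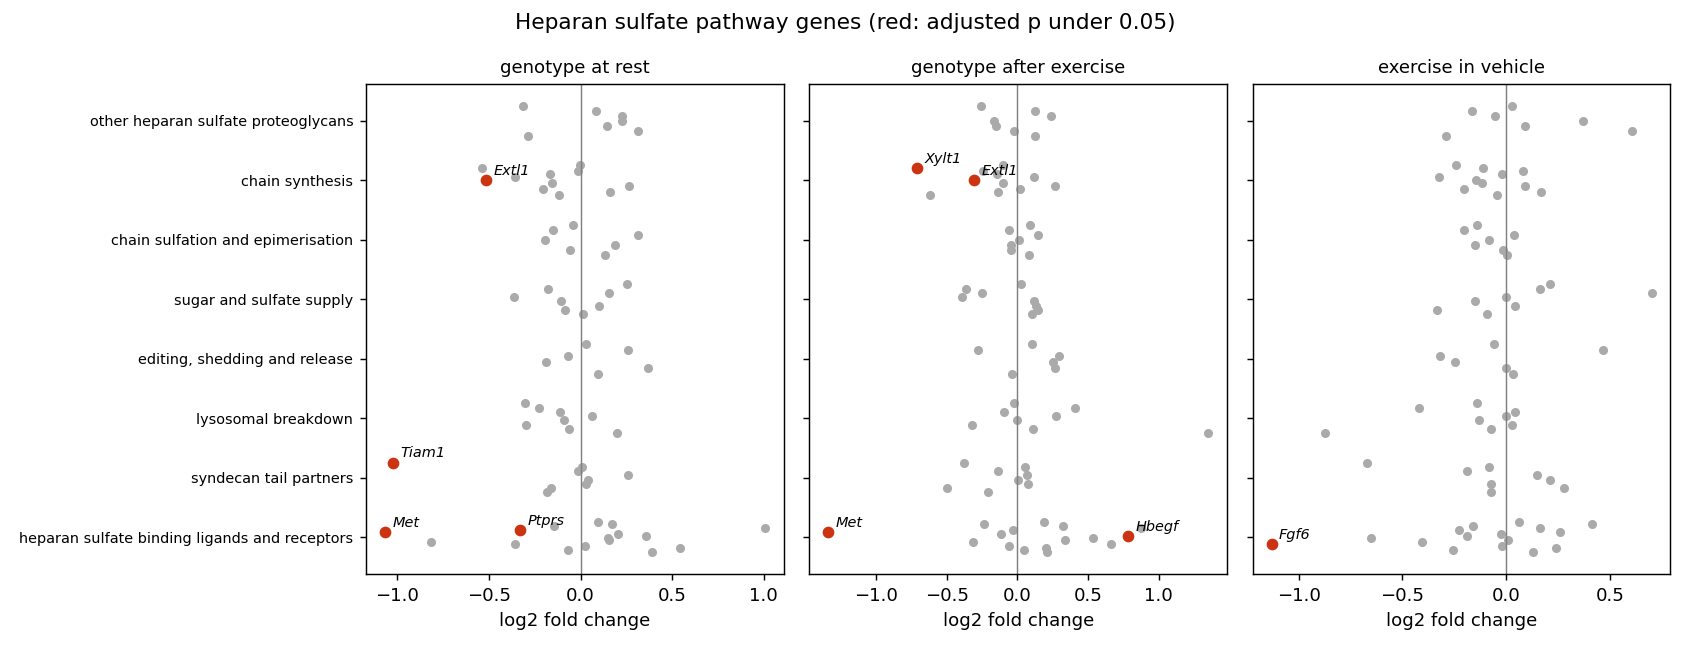
Log2 fold changes (horizontal axes) of the 71 tested heparan sulfate pathway genes by list, for genotype at rest, genotype after exercise and exercise in vehicle, with 1 point per gene and red points for an adjusted p under 0.05. The called genes are Extl1, Tiam1, Met and Ptprs at rest, Xylt1, Extl1, Met and Hbegf after exercise, and Fgf6 with exercise, all lower except Hbegf.

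The genes most like Gpc4 and Sdc4 were sought by Pearson correlation of log2 CPM over the 20 samples among 11722 other genes, as a description, since all genes share the same libraries and groups. Gpc4 was closest to Rab11b (r = 0.96), Agpat3 (0.95), Ginm1 (0.95), AL626769.1 (0.95) and Ice1 (0.95). On deviations from the group means its closest genes were Ppp4r3a (0.83), Lrch3 (0.82), Cep152 (0.79), Zfp81 (0.78) and Gprasp1 (0.77). Sdc4 was closest to Kdm4a (r = 0.90), Csrp1 (0.88), Nfil3 (0.87), Zmiz1 (0.85) and Bag3 (0.83). On deviations its closest genes were Clic4 (0.92), Plin3 (0.91), Agpat2 (0.91), Maff (0.90) and Ogdhl (0.90). None of these genes was shared between both measures for either member. Among the members themselves, Gpc1 and Gpc4 had r = -0.77 over the 20 samples and -0.22 on deviations from the group means, and Sdc3 and Sdc4 had 0.21 and 0.64.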

How the data were processed

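RNA sequencing of 20 gastrocnemius samples was taken from a gene table in which the authors deposited unnormalized counts. STAR 2.7.8a, Partek and DESeq2 and the builds mm10 and GRCm39 are named in the submitters' processing notes, with no role or order; the counting program, annotation and strandedness are not given in the sources used here. Groups and replicate numbers came from the titles. The description labels of the exercised knockout-labelled samples speak of training; they were analysed as acute exercise.

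The filterByExpr function of edgeR 4.0.16 (minimum 10 counts) left 13560 of 53311 genes with 99.8% of the counts. TMM factors (trimmed mean of M-values) set the library sizes. A robust quasi-likelihood model in R 4.3.3 with 1 mean per group over all 20 samples gave 5 contrasts, with Benjamini-Hochberg adjustment over 13560 genes and a threshold of 0.05. Standard errors came from the F statistics, and log2 CPM used a prior count of 2. Merged exon lengths and overlaps came from GENCODE M21 (97.1% of symbols matched), promoters from RefSeq. Scripts were tested on simulated counts. No library was a duplicate of another in its group (the closest pairs had chi-square values per degree of freedom of at least 4.04). Pairs from different groups were not examined in this way.

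The members, lists and tests were chosen with earlier results of these data known. Named genes were the members, called pathway genes (at most 12 per contrast), the 2 with the smallest p where none was called, and the 5 most similar genes. Ext1, Ext2, Sdcbp, Hspg2, Ndst1, Gpc2, Gpc3, Gpc5 and the overlapping genes Ankmy1 and Gm26716 fall outside this rule and were named after their values were seen. The same holds for naming the satellite cell markers Itga7, Megf10 and Calcr singly. Marker lists were those of muscle, slow and fast fibres, satellite cells, fibroblasts, tendon, endothelium, smooth muscle, Schwann cells, leukocytes, fat and red blood cells. Of all 12 lists, 1 marker was called in 1 comparison, a red blood cell gene, lower in knockout-labelled muscle after exercise. Alternatives were RLE scaling, library size only (chosen after seeing the data), no filter, DESeq2 1.42.0, the replicate number as a block, only the groups of a contrast, 2 tissue scores as covariates, and each library left out. The slow-fibre score was also tested as a term of the edgeR model over all genes. Limits from a count of 0 cover counting error only, while intervals of log2 values come from the model and include the spread between samples.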

Additional observations from a re-analysis of the deposited data

Results flagged for a closer look

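Each of the 7 genes was examined in each of the 4 groups for a sample far from the other 4, 28 groups in all, where chance marks about 1 in 20. In vehicle muscle after exercise, replicate 3 had 278 CPM of Gpc1, below the next lowest sample at 326 CPM, a gap of 0.72 of the group's range against a critical value of 0.71. In the same group, replicate 5 had 14.9 CPM of Gpc4, above the next highest at 12.6 CPM, a gap of 0.801 of the range. Even so, 14.9 CPM lay below the lowest knockout-labelled sample at 33.7 CPM.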

How the results depend on the processing

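Calls of Gpc4 and Sdc4 follow from how the members were chosen, and their range over alternatives is no sign of stability. With the slow-fibre score as a covariate, 842 genes were called at rest (523 in the reported fit), 1417 for genotype after exercise (870), 248 for exercise in vehicle (109) and 13 for exercise in knockout-labelled muscle (0), and 2 pathway genes for exercise in vehicle (1). With only the groups of a contrast, 567 genes and 1 pathway gene were called for genotype after exercise and 61 genes for exercise in vehicle. DESeq2 called 189 genes for exercise in vehicle and 2 for the interaction. With 1 library left out, exercise in vehicle called 52 (without vehicle at rest replicate 5) to 135 genes (without vehicle after exercise replicate 5) and 0 to 1 pathway genes, genotype after exercise 1 (without vehicle replicate 2) to 4 pathway genes, and the interaction 0 to 1 genes (1 without knockout-labelled at rest replicate 3). The cause was not tested.

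Beyond single libraries, the Sdc4 call at rest was lost without the filter, with library size only, with the replicate block (log2 fold change 0.84, edgeR adjusted p 0.0584) and with the fibroblast score (0.68, adjusted p 0.0836). The Sdc4 call with exercise in vehicle was lost without the filter, with library size only, with only its 2 groups and with the replicate block (1.03, adjusted p 0.0538). The Gpc1 calls were lost with the fibroblast score (-0.34 and -0.30, adjusted p 0.0900 and 0.0894), and at rest with only its groups. Whether replicate numbers pair the samples was not settled. Same-numbered samples had correlations of their deviations from -0.51 to 0.50 (median 0.117), above 0.1 in 15 of 30 pairs. Differently numbered samples of different groups had correlations from -0.55 to 0.53 (median -0.015), above 0.1 in 45 of 120 pairs. Of 20 samples, 7 correlated best with their own number. With the replicate block, 518 genes were called at rest, 824 for genotype after exercise, 100 for exercise in vehicle and 0 for the others, with 4, 4, 1 and 0 pathway genes. Low counts limit Sdc1 (10 to 25 counts) and Gpc6 (0 to 5 counts), for which small differences were not detectable.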
